A study of Mus musculus with 16 samples.

Results

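Metallothioneins are small cysteine-rich proteins that bind zinc and copper, and their genes are among the most readily induced in mammalian tissues. The 6 genes of zinc handling below were followed here in mouse skeletal muscle: the metallothioneins Mt1, Mt2 and Mt3, the zinc-sensing transcription factor Mtf1, the plasma membrane zinc exporter Slc30a1 (ZnT1) and the zinc importer Slc39a14 (ZIP14). They are 6 of 28972 genes tested and were measured by 9 of the array's 55681 probes. Mt1 and Mt2 were selected on their higher signal in the knockout, so their genotype differences are given as a description, without a test. The other 4 genes were chosen for their place in the same pathway. Their genotype differences were tested, as were the diet and interaction terms of all 6 genes.

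The study compared wild-type mice (WT, Skm-CB1R+/+) with mice lacking the cannabinoid receptor 1 gene Cnr1 in skeletal muscle (CB1KO, Skm-CB1R-/-). The deletion came from Cre recombinase under the ACTA1 promoter, which is active in muscle fibres, acting on a floxed Cnr1 gene, and controls were littermates. Males aged 21 to 23 weeks had eaten for 15 weeks either a standard diet (SD; 16.7% of energy in kJ from fat and 12.4% from sugar) or a diet high in fat and sugar (HFHS; 49.2% and 32.2%). Each of the 4 groups (WT_SD, CB1KO_SD, WT_HFHS and CB1KO_HFHS) held 4 muscle RNA samples, 1 per one-colour Agilent array, described as biological replicates. Groups follow the sample titles. The diet tag among the characteristics differs from the titles for CB1KO_SD and WT_HFHS, the breeding notes call both genotypes Cre-positive, and the treatment notes mention assignment to vehicle or S961 (an insulin receptor antagonist) without giving it per array. Which muscle was dissected is not given in the sources used here. Slide 1 held the SD arrays and slide 2 the HFHS arrays, each scanned in its own run, so a diet difference and a slide difference cannot be told apart. On each slide all WT arrays lay in row 1 and all CB1KO arrays in row 2. A genotype difference and a row difference therefore cannot be told apart either. The 16 arrays had 56.7% to 75% of spots well above background, and the SD of log2 signal over an array's spots ran from 2.89 (CB1KO_SD replicate 2) to 3.97 (CB1KO_HFHS replicate 1), with the other 14 between 3.14 and 3.69.

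Every value below is a log2 signal relative to the array's 75th percentile, so a difference of 1 is a doubling, and values are given in replicate order. Adjusted p-values are limma's, two-sided, with Benjamini-Hochberg adjustment over all genes tested and a threshold of 0.05. The deleted gene did not separate the genotypes. Cnr1 was at -2.03, -2.28, -2.98 and -3.64 in WT_SD and -2.56, -3.69, -3.41 and -2.23 in CB1KO_SD, and at -1.93, -2.34, -3.18 and -1.75 in WT_HFHS against -1.49, -2.93, -2.44 and -2.91 in CB1KO_HFHS. The averaged difference was -0.19 ± 0.32 (SE; adjusted p = 0.794). Whether the probe lies in the floxed part was not tested. Fibre genes such as Acta1 and Ckm marked all 16 samples as muscle, with the summed level of 10 fibre markers between 2560 and 5270 times the 75th percentile.

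In the textbook pathway, free zinc in the cell loads the zinc fingers of MTF1, which moves to the nucleus and binds metal response elements near the genes it activates. Metallothioneins then hold the metal, ZnT1 pumps it out of the cell, and ZIP14 brings zinc and iron in. Mt1 and Mt2 also respond to glucocorticoids and to interleukin 6, and Mt3 is known mainly from brain. In mouse, Mt4, Mt3, Mt2 and Mt1 lie side by side on chromosome 8.

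The core of the metal response element was searched as TGCACNC or TGCGCNC on both strands of RefSeq promoters, each 250 bases before to 50 bases after the start site (GRCm38.p6). At least 1 match was found in 25.7% of 32851 promoters. Mt2 had 4 matches, beginning at positions -223, -128, -50 and 5 from the start, and 0.295% of promoters had at least as many. Mt1 had 3, beginning at -23, 3 and 21, and 1.31% of promoters had at least as many. Slc30a1 had 2, from -43 and from 31, and 6.14% of promoters had at least as many. Mt3 had 1, from 28, Mt4 had 1, from -91, and the Mtf1 window had 0. Slc39a14 is named only.

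The bases before the start site are shown for the 3 genes with more than 1 match, to let the placing of the matches be compared. Capitals mark the core on either strand, so a match on the opposite strand reads in its reverse complement. The stretches are RefSeq GRCm38.p6, plus strand, at chr8:94178839-94179088 for Mt1, chr8:94172368-94172617 for Mt2 and chr1:191906531-191906780 for Slc30a1.
Mt1: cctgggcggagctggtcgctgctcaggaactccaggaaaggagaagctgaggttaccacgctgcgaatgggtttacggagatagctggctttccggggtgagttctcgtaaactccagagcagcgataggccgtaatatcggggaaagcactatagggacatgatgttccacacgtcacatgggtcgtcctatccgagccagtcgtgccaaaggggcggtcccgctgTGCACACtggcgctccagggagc
Mt2: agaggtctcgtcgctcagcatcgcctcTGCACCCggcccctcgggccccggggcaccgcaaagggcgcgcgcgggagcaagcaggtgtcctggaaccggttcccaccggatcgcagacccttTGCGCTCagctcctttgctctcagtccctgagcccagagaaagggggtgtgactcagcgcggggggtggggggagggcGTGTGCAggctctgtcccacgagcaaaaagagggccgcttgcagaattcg
Slc30a1: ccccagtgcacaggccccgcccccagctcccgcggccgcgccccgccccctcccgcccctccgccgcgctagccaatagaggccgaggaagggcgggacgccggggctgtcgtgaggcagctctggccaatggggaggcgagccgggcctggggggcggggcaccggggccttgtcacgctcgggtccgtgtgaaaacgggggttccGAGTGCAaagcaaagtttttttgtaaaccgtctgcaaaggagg

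Before the RefSeq start, Mt1 carries its only match close to that start, while those of Mt2 are spread over the window. Mt1 has others just after it, from 3 and 21. The placing depends on the start used, and other start sites were not tested. The single match of Slc30a1 shown here lies on the opposite strand. The antioxidant response letters TGACNNNGC occur in 12.4% of promoters, and stood once each in Mt2 (from -79) and Slc30a1 (from -82, opposite strand). The STAT letters TTCNNNGAA (8.3% of promoters) and the full glucocorticoid element, an inverted repeat (0.00913%), were not in these 6 windows, which cover only 300 bases. Within these windows the TATA letters TATAAA (13.6%) stood in Mt4 only, and bases outside the windows were not searched.

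**Figure D1:**
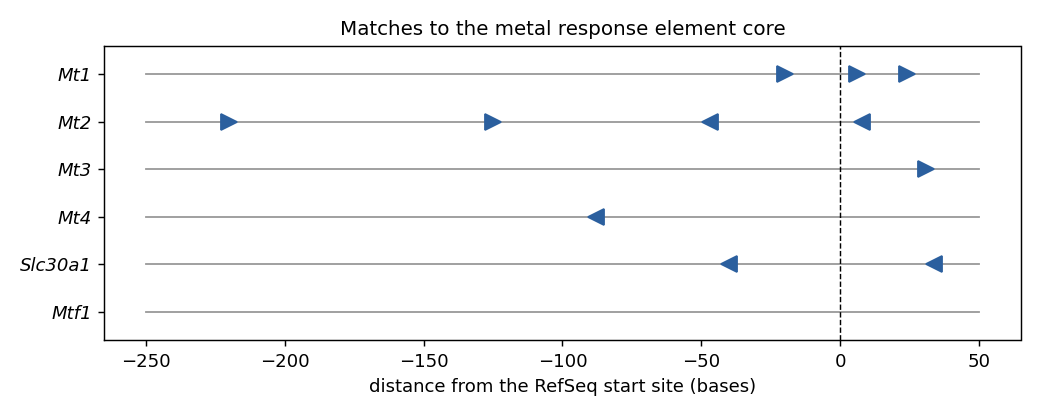
Matches to the metal response element core in the promoters of 6 genes, plotted by distance in bases from the RefSeq start site (dashed line). Triangles pointing right are matches on the gene's strand and triangles pointing left on the opposite strand; Mt2 has 4, Mt1 has 3 and Mtf1 has 0.

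Mt1 was higher in the knockout on both diets. It stood at 5.34, 5.52, 4.42 and 5.94 in WT_SD and at 6.34, 6.47, 7.39 and 8.31 in CB1KO_SD. Every knockout array on SD lay above every WT array, and the means were 5.30 ± 0.64 and 7.13 ± 0.92 (SD, n = 4 each), a difference of 1.82 or 3.54-fold. On HFHS the WT arrays were at 4.58, 5.09, 4.51 and 4.50 and the knockout arrays at 5.67, 5.26, 6.66 and 6.69. These groups did not overlap either, though the lowest knockout array lay just above the highest WT array, and the means of 4.67 ± 0.28 and 6.07 ± 0.72 differed by 1.40, or 2.64-fold. Averaged over the diets, Mt1 was 3.06-fold higher, a log2 difference of 1.61 ± 0.32 (SE). In bulk tissue a change in cells carrying a transcript cannot be told apart from a change in RNA per cell.

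Mt2 was also higher in the knockout on both diets. On SD it was at 4.83, 5.0, 3.64 and 6.09 in WT and at 5.95, 6.27, 7.18 and 8.14 in the knockout. Here the groups overlapped, since WT_SD replicate 4 lay above CB1KO_SD replicate 1, and the means of 4.89 ± 1.00 and 6.89 ± 0.98 differed by 2.0, or 4.0-fold. On HFHS the WT arrays were at 3.76, 4.93, 2.97 and 3.58 and the knockout arrays at 5.93, 5.66, 6.54 and 6.45. Those groups did not overlap, and the means of 3.81 ± 0.82 and 6.15 ± 0.42 differed by 2.34, or 5.05-fold. The averaged log2 difference was 2.17 ± 0.40 (SE), or 4.49-fold. Because both genes were picked on this contrast, the share of all genes whose knockout arrays lay wholly above is given only as background. It was 1.03% on SD, 3.16% on HFHS and 0.128% on both diets (37 genes, Mt1 among them).

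The diets ordered Mt1 and Mt2 alike, without a difference that passed the test. Both genes were lower on HFHS than on SD in each genotype, by sizes that moved with single arrays. For Mt1 the differences were -0.64 ± 0.45 in WT (adjusted p = 0.956) and -1.06 ± 0.45 in the knockout, the latter with an unadjusted limma p of 0.0355 and an adjusted p of 0.48. For Mt2 the differences were -1.08 ± 0.56 in WT (adjusted p = 0.886) and -0.74 ± 0.56 in the knockout (adjusted p = 0.696). Without CB1KO_SD replicate 4 the knockout differences were -0.66 for Mt1 and -0.32 for Mt2. Without WT_SD replicate 4 the WT differences were -0.42 and -0.68. With array weights the WT differences were -0.10 and -0.08, and with the mean of its probes Mt1 in the knockout was at -2.40. From low to high, the group means of Mt1 ran WT_HFHS, WT_SD, CB1KO_HFHS, CB1KO_SD. The arrays of the 2 middle groups overlapped, as they did for Mt2, which had the same order. The genotype-by-diet interaction was -0.42 ± 0.64 for Mt1 and 0.34 ± 0.79 for Mt2 (limma, adjusted p = 1 for both), so neither gene's genotype difference was shown to depend on diet. Among all genes, 0% passed for the interaction and for diet in WT, and 0.0276% passed for diet in the knockout. At an unadjusted p under 0.05 these were 1052, 1756 and 2779 genes.

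**Figure D2:**
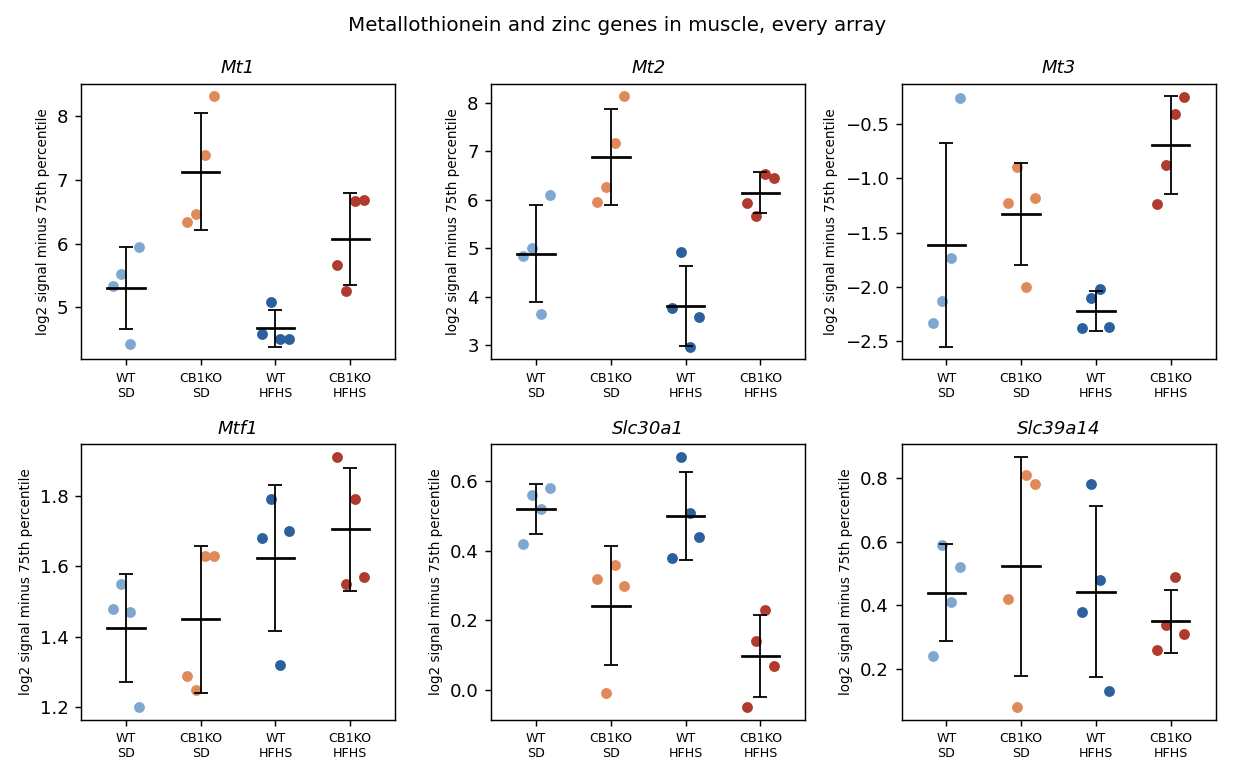
The 6 genes on every array, by group, as log2 signal minus the array's 75th percentile; points are arrays, the wide bar is the group mean and whiskers are the SD (n = 4), and each panel has its own axis. Mt1 and Mt2 are higher in the knockout on both diets (means 7.13 and 6.89 on SD), Slc30a1 is lower, and Mt3 separates the genotypes on HFHS but not on SD, where WT_SD replicate 4 is high at -0.26.

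The array has another probe for Mt1, designed to the predicted transcript XM_006530752, and it gave a different picture on HFHS. On SD it read 1.36, 1.57, -2.64 and -1.66 in WT and 3.29, 2.76, 3.25 and 4.28 in the knockout, a gap of 3.74 (13.3-fold) with no overlap. On HFHS it read -1.91, -3.18, -1.99 and -0.25 in WT and -3.51, -2.81, 1.68 and 3.28 in the knockout. The knockout arrays on HFHS thus fell into a low and a high pair (SD 3.33), the groups overlapped, and the means differed by 1.49, or 2.8-fold. It was well above background on all 16 arrays, like the probe used for the gene. These genotype values too are a description.

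The genes nearest to this second probe's pattern were looked up after its values were seen. Of 17301 named genes, those with the highest Pearson r over the 16 arrays were Btg2 (0.975), Apold1 (0.96), Fosb (0.947), Dusp1 (0.946), Zfp36 (0.946) and Nr4a2 (0.939). Btg2 and Zfp36 are rapidly induced regulators of mRNA decay and growth, Fosb and Nr4a2 are transcription factors, and Dusp1 is a MAP kinase phosphatase. None passed the averaged genotype test (limma, adjusted p 0.166 to 0.447). The probe used for Mt1 ranked 80 in that list (r = 0.774) and Mt2 ranked 200 (r = 0.62). What the second probe measures was not tested.

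**Figure D3:**
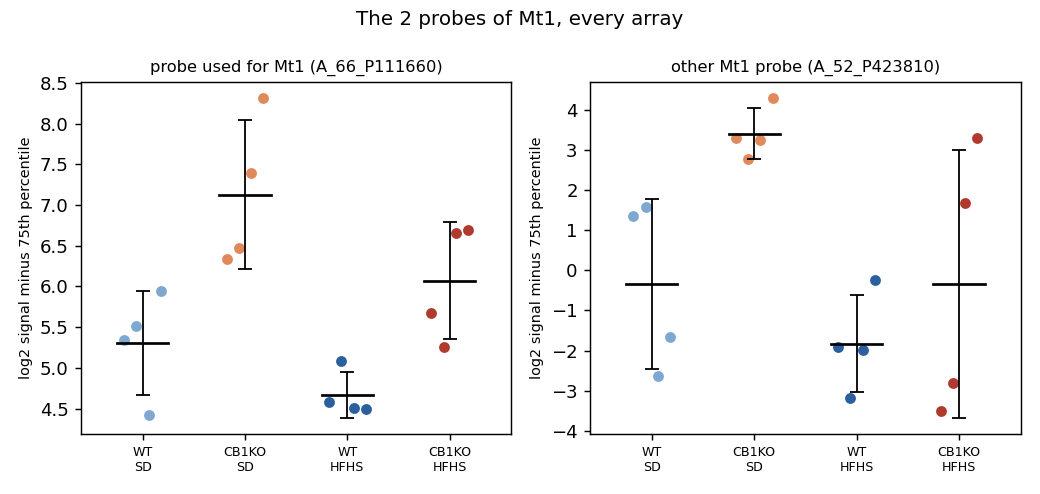
Both Mt1 probes on every array, as log2 signal minus the array's 75th percentile, with group means and SD (n = 4). The used probe (left) separates the genotypes on each diet, while the other probe (right) separates them on SD and splits the CB1KO_HFHS arrays between -3.51 and 3.28.

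Mt3 did not pass the genotype test, and its call depended on 1 WT array and on how the arrays' spread was handled. It read -2.33, -2.13, -1.73 and -0.26 in WT_SD, and -1.23, -0.90, -2.0 and -1.18 in CB1KO_SD. The WT_SD arrays spanned the knockout arrays, and the difference was 0.29 ± 0.39 (adjusted p = 0.894). On HFHS it read -2.38, -2.10, -2.02 and -2.37 in WT and -1.24, -0.88, -0.41 and -0.25 in the knockout. These groups did not overlap, as for 3.16% of all genes in that direction. The difference was 1.52 ± 0.39 or 2.88-fold, with an unadjusted limma p of 0.00158 and an adjusted p of 0.166. The averaged difference was 0.91 ± 0.28 (adjusted p = 0.142). Without WT_SD replicate 4, the averaged difference was 1.13 (adjusted p = 0.0235) and that on HFHS stayed at 1.52 (adjusted p = 0.0322), while that on SD was 0.74 (adjusted p = 0.559). With all arrays kept it also passed on average and on HFHS with array weights (adjusted p = 0.0185 and 0.00194) and with each array's signal SD added to the model (adjusted p = 0.0279 and 0.0299). The interaction was 1.24 ± 0.55 (limma, unadjusted p = 0.0414, adjusted p = 1), and the diet differences were -0.60 ± 0.39 in WT and 0.63 ± 0.39 in the knockout (adjusted p = 0.938 and 0.633). The gene's deviations from its group means had r = -0.6 with the arrays' SD of log2 signal, and with that SD in the fit the averaged difference was 0.97.

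The last gene of the cluster, Mt4, a metallothionein of stratified epithelia, was not higher in the knockout. It read -2.69, -3.49, -2.80 and -0.34 in WT_SD, so WT_SD replicate 4 stood high for it as for Mt3. Its averaged difference was -0.29 ± 0.35 (adjusted p = 0.709), and 0.04 with that array left out. The 5 protein-coding genes on each side of the cluster were all tested and 0 passed in limma. Their averaged differences ran from -0.96 for Slc12a3, a renal sodium chloride cotransporter, to 0.57 for Cpne2 (lowest adjusted p = 0.124). Nup93, a nuclear pore gene and the neighbour of Mt1, differed by -0.04 ± 0.09.

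Mtf1, which encodes the factor that switches metallothionein genes on, had similar means in the 4 groups (1.42, 1.45, 1.63 and 1.70) and passed no test. It read 1.48, 1.55, 1.47 and 1.20 in WT_SD and 1.29, 1.25, 1.63 and 1.63 in CB1KO_SD. On HFHS it read 1.68, 1.79, 1.32 and 1.70 in WT and 1.91, 1.55, 1.79 and 1.57 in the knockout, and the genotypes overlapped on each diet. The averaged difference was 0.05 ± 0.10 (adjusted p = 0.833), and neither diet difference passed (0.20 ± 0.15 in WT and 0.25 ± 0.15 in the knockout, adjusted p = 0.96 and 0.612). A second kept probe had group means between -2.15 and -1.87, and the remaining probe was well above background on 0 of 16 arrays.

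Slc30a1, which carries zinc out of the cell, was slightly lower in the knockout on both diets. On SD it read 0.42, 0.56, 0.52 and 0.58 in WT and 0.32, -0.01, 0.36 and 0.30 in the knockout. On HFHS it read 0.38, 0.67, 0.51 and 0.44 in WT and -0.05, 0.14, 0.23 and 0.07 in the knockout. All knockout arrays lay below all WT arrays on each diet, which held for 3.18% of genes on SD, 6.92% on HFHS and 0.428% on both. The differences were -0.28 ± 0.11 on SD (adjusted p = 0.494) and -0.40 ± 0.11 on HFHS (adjusted p = 0.222). The averaged difference of -0.34 ± 0.08, 1.27-fold lower, missed the threshold (limma, unadjusted p = 0.000867, adjusted p = 0.0702). Over all other settings its adjusted p ran from 0.0211 to 0.451. In this comparison the median of all genes was itself -0.13. With normexp and quantile normalization the median gene moved to -0.02, and Slc30a1 passed at -0.32 (adjusted p = 0.0323). It also passed in 6 other settings, among them the fit without CB1KO_SD replicate 2 at -0.30 (adjusted p = 0.0498). The diet differences were -0.02 ± 0.11 in WT and -0.15 ± 0.11 in the knockout (adjusted p = 0.996 and 0.701).

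Slc39a14, the importer, showed no genotype difference beyond its spread. It read 0.24, 0.59, 0.41 and 0.52 in WT_SD and 0.42, 0.08, 0.81 and 0.78 in CB1KO_SD. On HFHS it read 0.38, 0.78, 0.48 and 0.13 in WT and 0.26, 0.34, 0.49 and 0.31 in the knockout. The averaged difference was 0.00 ± 0.12 in size (adjusted p = 0.992), and those on SD (0.08 ± 0.17) and HFHS (-0.09 ± 0.17) had adjusted p-values of 0.939 and 0.872. Its sign changed with the scaling. Of the 4 genes whose genotype contrast was tested, 0 passed in limma on average over the diets, on SD or on HFHS, where 0.763%, 0.00345% and 0.249% of all genes passed. Mt3 and Slc30a1 had an unadjusted p under 0.05 on average, as did 15% of all genes (4343).

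Within groups, 2 pairs of these genes moved together from sample to sample. Each array's deviation from its group mean was taken, so the genotype difference that chose Mt1 and Mt2 does not enter. Mt1 and Mt2 had r = 0.90 over 16 arrays (permutation p = 2e-05, adjusted over 15 pairs 0.0003) and rho = 0.94 (permutation p = 5e-05, adjusted 0.00075). Without the 2 arrays farthest from the median r was 0.84, and among 17300 named genes Mt2 ranked 2 for likeness to Mt1. The coding sequences of Mt1 and Mt2 resemble each other, and cross-hybridisation between their probes was not tested. The zinc exporter and importer had r = 0.84 (permutation p = 0.00051, adjusted 0.00382) and rho = 0.80 (permutation p = 0.00028, adjusted 0.0021). That r was 0.79 without the 2 farthest arrays, and Slc39a14 ranked 36 of 17300 genes for likeness to Slc30a1. The other 13 pairs did not pass. The nearest were Mt3 with Mtf1 (r = -0.61, permutation p = 0.0122, adjusted 0.0608) and Mt1 with Slc39a14 (r = 0.60, permutation p = 0.0322, adjusted 0.121). Deviations of Mt1 and Mt2 had r of 0.08 and 0.04 with the arrays' SD of log2 signal, those of Slc30a1 and Slc39a14 0.29 and 0.42, and those of Mtf1 0.68.

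**Figure D4:**
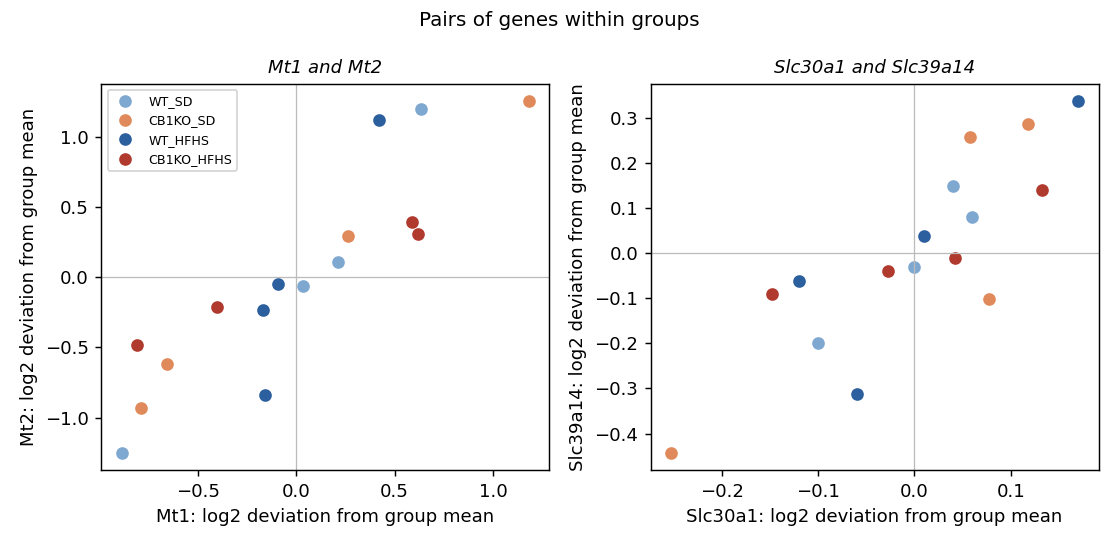
Deviations of each array from its group mean (log2) for Mt1 against Mt2 (left, r = 0.90) and Slc30a1 against Slc39a14 (right, r = 0.84); points are the 16 arrays, coloured by group. In each panel the arrays of all 4 groups run from lower left to upper right.

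Among the other zinc transporters, 0 passed the averaged genotype test in limma. Of 9 other Slc30 exporters, 6 were tested and 4 of these were lower in the knockout, with a median of -0.21 against -0.13 for all genes. Most genes were lower in this comparison, with 27.9% above 0. Slc30a2, which loads zinc into vesicles, differed by -0.56 ± 0.15 (adjusted p = 0.0965) and Slc30a9, a mitochondrial exporter, by -0.35 ± 0.11 (adjusted p = 0.157). Slc30a7 and Slc30a6, exporters of the secretory pathway, differed by 0.21 ± 0.11 and -0.17 ± 0.12 (adjusted p = 0.405 and 0.522). Slc30a3, Slc30a8 and Slc30a10 were not well above background. All 13 other Slc39 importers were tested, with a median of -0.18. Those with the smallest p were Slc39a2 (-0.43 ± 0.15, adjusted p = 0.207), Slc39a4, the intestinal zinc importer (-0.48 ± 0.23, adjusted p = 0.349), Slc39a6 (0.22 ± 0.11, adjusted p = 0.37) and Slc39a7, which releases zinc from the endoplasmic reticulum (-0.18 ± 0.09, adjusted p = 0.377). Slc39a2 and Slc39a4 were near the floor and not well above background on every array. In CB1KO_SD replicate 2 they read -4.74 and -4.77, where the lowest spot well above background was at -2.74. At an unadjusted p under 0.05 there were 2 of 6 exporters and 1 of 13 importers, against 15% of all genes. Slc30a2 passed in 6 other settings, with differences of -0.42 to -0.64 and adjusted p-values of 0.0122 to 0.0338: both quantile normalizations, array weights, the SD covariate, and the fits without CB1KO_SD replicate 2 alone or with CB1KO_HFHS replicate 1.

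**Figure D5:**
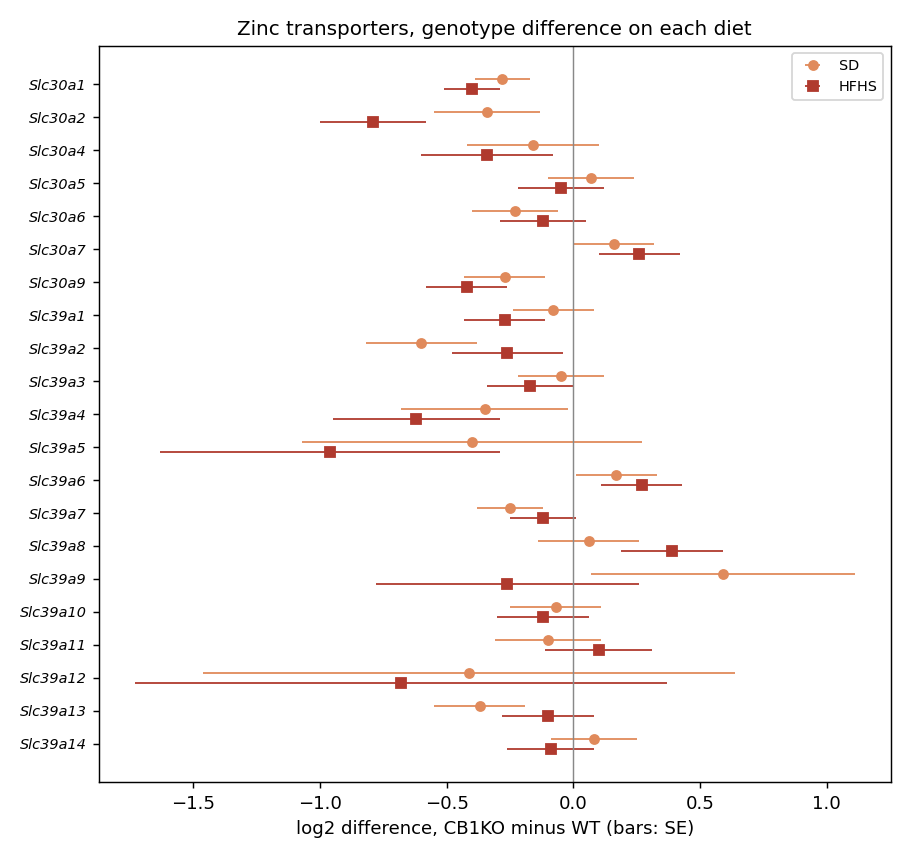
Genotype difference (CB1KO minus WT, log2) on SD (circles) and HFHS (squares) for Slc30a1, Slc39a14 and the other tested zinc transporters, with the SE from the fit as bars. Slc30a1 has the narrowest bars of the exporters, at -0.28 and -0.40, and Slc39a14 lies at 0.08 and -0.09.

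Genes of copper and iron handling did not pass either in this fit (0 of 19 tested, median -0.10). The iron exporter Slc40a1 (ferroportin) came nearest, at -0.61 ± 0.15 on average (adjusted p = 0.0842) and -1.12 ± 0.22 on HFHS (adjusted p = 0.0543). On HFHS its knockout arrays read 2.21, 2.74, 2.36 and 3.10 and its WT arrays 3.64 to 3.91. These did not overlap, as for 6.92% of all genes in that direction. The transferrin receptors Tfrc (-0.62 ± 0.19) and Tfr2 (-0.93 ± 0.28) and the mitochondrial iron importer Slc25a37 (0.30 ± 0.10) had adjusted p-values of 0.155, 0.139 and 0.197. Slc40a1 passed with trended variances (adjusted p = 0.0494), array weights (0.0222), the SD covariate (0.0328) and without CB1KO_SD replicate 3 (-0.69, adjusted p = 0.0393). Tfr2 passed with array weights (0.0142), without CB1KO_SD replicate 2 (-1.10, adjusted p = 0.0404) and without that array and CB1KO_HFHS replicate 1 (0.0113), and Tfrc without CB1KO_SD replicate 3 (-0.77, adjusted p = 0.0264).

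Lists for other known inducers of metallothioneins gave 0 calls in this fit. Over all genes, 27.9% were above 0. Of 17 antioxidant response genes tested, 10 were above 0, 14 were above the median gene and 0 passed in limma (median 0.00). The quinone reductase Nqo1 was at 0.29 ± 0.11 (adjusted p = 0.23), Gsr at -0.25 ± 0.10, Prdx1 at -0.22 ± 0.10 and Gpx1 at 0.19 ± 0.09. Of 18 glucocorticoid response genes, 9 were above 0, 11 were above the median gene and 0 passed (median -0.01). Ddit4, an inhibitor of mTORC1, was at 1.65 ± 0.63 and the clock gene Per1 at 0.62 ± 0.24 (adjusted p = 0.24 and 0.244), while Pdk4 and Angptl4 were at -0.39 ± 0.15 and -0.52 ± 0.25. In CB1KO_HFHS, Ddit4 read 1.64, 1.92, 6.07 and 5.63, and Per1 read 4.38, 4.37, 5.81 and 6.01. Replicates 1 and 2 were the low pair, as for the second Mt1 probe. They were also the lower pair for the used Mt1 probe (5.67 and 5.26 against 6.66 and 6.69), with a smaller gap. The same held for Mt2 (5.93 and 5.66 against 6.54 and 6.45) and Mt3 (-1.24 and -0.88 against -0.41 and -0.25). Pdk4 (7.01, 7.91, 7.9 and 7.67) and Angptl4 (4.95, 3.71, 3.47 and 3.07) had no such pairs. Of 15 genes of interleukin 6 and STAT3 signalling, 9 were above 0, 10 were above the median gene and 0 passed (median 0.11). The feedback inhibitor Socs3 was at 1.26 ± 0.49 and Il6 itself at 1.19 ± 0.44 (adjusted p = 0.244 and 0.218), Lifr at -0.32 ± 0.10 and Jak2 at -0.35 ± 0.14. By diet, Socs3 differed by 2.24 ± 0.69 on SD and 0.28 ± 0.69 on HFHS. Il6 differed by 2.18 ± 0.62 on SD and 0.20 ± 0.62 on HFHS. None of these passed (limma, adjusted p 0.317 to 0.922). Il6 was near the floor, at -3.30, -2.70, -3.39 and -3.87 in WT_SD and -1.77, -2.76, -0.95 and 0.98 in CB1KO_SD. The lowest spot well above background was at -3.40 in WT_SD replicate 4 and -2.74 in CB1KO_SD replicate 2. On average over the diets, at an unadjusted p under 0.05 these lists held 3, 3 and 5 genes, against 15% of all genes. With array weights Nqo1, Gsr, Ddit4, Per1, Angptl4, Lifr, Il6 and Socs3 passed (adjusted p 0.0164 to 0.0496), and Lifr also passed with the SD covariate (0.027).

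Muscle atrophy genes held the only calls of these lists: 2 of 16 rose and 0 fell, where 0.311% of all genes rose and 0.452% fell. Gadd45a, a growth arrest gene, read 2.45, 2.43, 2.59 and 2.73 in WT_HFHS and 3.44, 3.49, 3.87 and 3.77 in CB1KO_HFHS. It rose by 0.64 ± 0.12 on average (adjusted p = 0.0285) and by 1.09 ± 0.17 on HFHS (adjusted p = 0.0177). On SD its arrays overlapped, and the difference of 0.19 ± 0.17 did not pass (limma, adjusted p = 0.819). Cdkn1a, the cell cycle inhibitor p21, rose by 1.53 ± 0.29 on average (adjusted p = 0.0314). By diet it did not pass in limma, at 1.01 ± 0.42 on SD and 2.05 ± 0.42 on HFHS (adjusted p = 0.494 and 0.0647). In CB1KO_HFHS it read 1.48, 1.79, 3.37 and 3.19, with replicates 1 and 2 the low pair. With the mean of its probes the averaged Cdkn1a difference was 0.73 and did not pass (adjusted p = 0.108), nor did it with the replicate block (0.0822). It also lost its call when WT_SD replicate 1, 3 or 4, CB1KO_SD replicate 1 or 4, WT_HFHS replicate 1, 2 or 4, or CB1KO_HFHS replicate 3 or 4 was left out (1.38 to 1.62, adjusted p 0.0519 to 0.08). Gadd45a lost its call with a slide term (0.0868) and when 1 of these was left out: CB1KO_HFHS replicate 3 or 4, WT_HFHS replicate 1, 2 or 4, CB1KO_SD replicate 4 or WT_SD replicate 1 (0.60 to 0.67, adjusted p 0.0529 to 0.0754). The list's median of -0.14 was that of an average gene, with the F-box gene Fbxo21 at -0.27 ± 0.10 (adjusted p = 0.233), which passed with array weights (0.0357) and with the SD covariate (0.041).

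The median level of the interleukin 6 list had r = 0.63 with the mean of Mt1 and Mt2 over the 16 arrays and 0.22 over deviations from group means. For the glucocorticoid list these were 0.46 and 0.37, and for the antioxidant list 0.34 and 0.38. With the second Mt1 probe, the interleukin 6 list had r = 0.77 over the 16 arrays and 0.52 over deviations. For the glucocorticoid list these were 0.79 and 0.76, and for the antioxidant list 0.39 and 0.41. These values describe the same 16 arrays, which share genotype, diet and slide.

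Among 17299 named genes, those most like the mean of Mt1 and Mt2 over the 16 arrays, a measure that includes the genotype difference, were Tubb6 (r = 0.895), Plaur (0.89), Irf8 (0.888), Mymx (0.842), Gpr65 (0.84) and Sik1 (0.837). Tubb6 is a beta tubulin, Plaur the urokinase receptor, Irf8 a transcription factor of myeloid cells and Mymx a fusion protein of myoblasts. Their averaged genotype differences ran from 0.43 for Irf8 to 2.75 for Mymx and none passed (adjusted p 0.0686 to 0.183). Over deviations from group means the nearest were others: Musk (0.892), a kinase of the neuromuscular junction, Klk1b26 (0.88), Anxa7 (0.869), Pgap4 (0.847), Tob1 (0.844) and Klk1b5 (0.841). The Klk1b kallikreins are near-identical copies whose probes may share signal. Of the other zinc genes, Slc39a14 was nearest by deviations (r = 0.614, rank 256) while Slc30a1 had r = -0.436 (rank 15991) over the 16 arrays, where the genotype difference enters, and r = 0.439 (rank 1741) over deviations, where it does not.

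Markers of other cell types were set beside Mt1 and Mt2, and 0 genes of any marker list passed a genotype test in limma. As background to the counts below, 32.1% of all genes were above 0 on SD, 31.4% on HFHS and 27.9% on average. On SD all 9 slow-twitch fibre markers were higher in the knockout (median 2.56), with a summed level of 20 to 228 in WT_SD and 298 to 774 in CB1KO_SD. On HFHS their median was 0.06, and the sums of 30.3 to 927 in WT and 37.0 to 628 in the knockout overlapped. The slow-twitch median had r = 0.17 with the mean of Mt1 and Mt2 over the arrays and 0.02 over deviations. Of 10 macrophage markers, 9 were higher in the knockout on HFHS (median 0.82) against a median of 0.00 on SD, with summed levels of 63.7 to 96.5 in WT_SD, 65.3 to 91.4 in CB1KO_SD, 71.2 to 87.7 in WT_HFHS and 82.1 to 121 in CB1KO_HFHS. Itgam, the marker not higher on HFHS, was the brightest of them (group means 5.45 to 5.73) and weighs most in these sums. The macrophage markers had r = 0.28 and 0.15. Schwann cell markers ran the other way, with r = -0.67 over the arrays and -0.56 over deviations and sums of 14.9 to 25.9 in WT_SD, 14.4 to 26.7 in CB1KO_SD, 17.1 to 24.8 in WT_HFHS and 12.0 to 20.4 in CB1KO_HFHS. All 8 adipocyte markers were lower in the knockout on SD (median -0.81) and 6 of 8 higher on HFHS (median 0.20), with summed levels of 245 to 582 in WT_SD, 226 to 322 in CB1KO_SD, 268 to 352 in WT_HFHS and 241 to 492 in CB1KO_HFHS. Adipocyte markers had r = -0.46 and -0.48, and the fibre markers 0.01 and 0.02. Of 5 neutrophil markers tested, 3 were higher on average (median 0.77), with r of 0.36 and 0.31 and sums of 113 to 158, 78.5 to 146, 119 to 151 and 114 to 141 in the same order of groups. These sums were mostly Csf3r, with group means of 6.77 to 7.04 against -3.22 to 0.97 for the others. Csf3r (-0.18 ± 0.13) and Cxcr2 (-0.20 ± 0.44) were the markers not higher. The lymphocyte, endothelial, fibroblast, smooth muscle, erythroid and satellite cell lists had averaged medians between -0.11 and 0.15. Cd79a and Myf5 were not well above background. The part of fibre type or other cells in the Mt1 and Mt2 values was not tested.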

How the data were processed

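Muscle RNA of 16 samples was measured on 16 one-colour Agilent arrays. Per the file headers, Feature Extraction 11.5.1.1 turned each scan into the deposited intensities, and its processed intensity, used here, has the background subtracted but no scaling between arrays. The authors also deposited a table with 1 score for each spot. On checking, these scores were z-scores of the log2 processed intensities of each array, to within 0.005. Of 55681 probes, 28026 took a symbol through the accessions of a RefSeq gene table, and 27655 kept the name in the file.

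From the processed intensities, log2 values minus the array's 75th percentile over non-control spots were computed. Outlier spots (0.018% of values) were set to missing and 0 spots were saturated. A probe had to be well above background on at least 4 arrays, and each gene was read from its brightest probe. All 16 arrays entered a single limma 3.58.1 model in R 4.3.3 with the 4 group means. Members and gene lists were chosen with earlier results of these data known. Of each list, the 4 genes with the smallest p were named, and 6 genes by each measure of likeness. Some genes of the lists are not reported here. Pairs were tested with 100000 permutations within groups, two-sided. On simulated data for the averaged genotype comparison over 28972 genes, 56% of genes changed by 1 and 83% of those changed by 2 were recovered. In that simulation 7 unchanged genes were also called. Deviations of same-numbered samples of the 2 genotypes had r from -0.754 to 0.0491 on SD and from 0.049 to 0.434 on HFHS. The replicate number is also the column on the slide, and these values do not settle whether it pairs the samples. Alternatives covered background correction, scaling, filter, probe choice, variance model, replicate block, signal spread and each array left out, and a slide term was added after seeing the data. The number of arrays limits the precision.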

Additional observations from a re-analysis of the deposited data

Results flagged for a closer look

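Among 24 groups of 4 arrays (6 genes in 4 groups), 2 held an array far from the other 3, and chance alone flags about 1 in 20 groups. Mt1 read 5.09 in WT_HFHS replicate 2 against 4.50 to 4.58 in the other 3 arrays, a gap of 0.86 of the group's range, above Dixon's critical value for 4 samples. Slc30a1 read -0.01 in CB1KO_SD replicate 2 against 0.30 to 0.36 in the others, a gap of 0.852 of the range. That array also had the smallest SD of log2 signal (2.89). With the arrays' SD as a covariate the averaged Slc30a1 difference was -0.347 (limma, adjusted p = 0.0243). Without that array the averaged Slc30a1 difference was -0.298 (limma, adjusted p = 0.0498).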

How the results depend on the processing

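The higher Mt1 and Mt2 in the knockout kept its direction in every alternative run, with averaged differences of 1.41 to 2.11 and 1.96 to 2.43. Both genes were picked for this rise in the same arrays, so the kept direction is a description and not a test. On SD the size moved most, to 2.78 for Mt1 with the mean of its probes and to 2.51 (Mt1) and 2.86 (Mt2) with array weights. Mt3 passed on average and on HFHS with array weights (0.928 and 1.67), with the SD of log2 signal as covariate (0.971 and 1.63) and without WT_SD replicate 4. Slc30a1 passed on average with normexp and quantile normalization (-0.318), quantile normalization (-0.341), a filter on all 16 arrays and trended variances (both -0.34), array weights (-0.306), the covariate (-0.347) and without CB1KO_SD replicate 2, and on HFHS with array weights (-0.413). Leaving out each array in turn gave 0.786 to 1.13 for Mt3 and -0.362 to -0.298 for Slc30a1 on average, and 1.37 to 1.71 for Mt3 on HFHS.

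Some values that had not passed changed sign in other settings, without passing. With array weights these were the Mt2 interaction (-0.863), Mtf1 on HFHS (-0.0315) and in the interaction (-0.127), Slc30a1 by diet in WT (0.0453) and Slc39a14 on average (0.0444). With the mean of probes they were Mtf1 in the interaction (-0.117) and by diet in the knockout (-0.0137) and Slc30a7 (-0.125). With the deposited scores they were Slc30a1 by diet (0.0608 in WT, 0.00869 in the knockout) and Slc39a14 on average (0.0695) and on HFHS (0.00869). With normexp they were Slc39a14 on average (0.0271), on HFHS (0.00143) and by diet in WT (-0.0361), the last also with quantile normalization (-0.00529) and the covariate (-0.0574). Without both arrays of unusual spread they were the Mtf1 interaction (-0.0848) and Slc39a14 on average (0.0863). Leaving out 1 array gave -0.0632 to 0.755 for the Mt2 interaction, -0.0505 to 0.092, -0.0248 to 0.13 and -0.0498 to 0.126 for Mtf1 on SD, on HFHS and in the interaction, and -0.077 to 0.019 for Slc30a1 by diet in WT. For Slc39a14 it gave -0.0555 to 0.0707 on average, -0.0116 to 0.231 on SD, -0.194 to 0.0234 on HFHS and -0.111 to 0.107 by diet in WT, and for Mt4 -0.488 to 0.0365. Outlier spots kept in changed no call.

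The number of genes called moved far more than the members did, and the cause was not tested. The averaged comparison had 221 calls as reported, 390 with normexp, 363 with quantile normalization, 133 with no filter, 350 with trended variances, 2241 with array weights, 1734 with the covariate and 870 without both arrays. With the replicate block it had 59, and whether the replicate numbers pair the samples was not settled. On SD, 1 call became 26 with normexp, 24 with quantile normalization, 25 with the deposited scores, 7 with the filter on all arrays, 4 with the mean of probes, 6 with trended variances, 96 with weights, 148 with the covariate, 227 without both arrays and 0 with only the groups compared. On HFHS, 72 became 124 with normexp, 110 with trended variances, 2328 with weights, 36 with the replicate block, 41 with only the groups compared, 345 with the covariate and 190 without both arrays. The interaction had 1 call with normexp and 10 each with weights and without both arrays, and diet in WT 235 with weights and 1 without both arrays. Diet in the knockout, 8 as reported, had 2 with either quantile setting, 3 with the deposited scores or the mean of probes, 4 with no filter, 14 with the filter on all arrays, 1 with trended variances, 142 with weights, 15 with the covariate, 23 without both arrays and 0 with the replicate block or only the groups compared. Leaving out 1 array gave 59 to 610 calls on average, 0 to 12 on SD, 15 to 134 on HFHS, 0 to 11 for the interaction, 0 to 1 for diet in WT and 0 to 28 for diet in the knockout. A random slide block was not run because slide is nested in the group means. The simulation covered changes of 1 and 2 only, so how often differences as small as that of Slc30a1 are recovered was not tested.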
